A study of Mus musculus with 6 samples.

Results

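The replication-dependent histone genes are described here in 6 RNA sequencing libraries of mouse germinal center B cells, 3 from cKO mice and 3 from WT mice. They are the 62 genes whose name starts with Hist1 to Hist4, out of 19680 genes in the deposited table: 5 of type H1, 15 H2A, 19 H2B, 10 H3 and 13 H4, with 49 in the Hist1 cluster, 9 in Hist2, 3 in Hist3 and 1 in Hist4. Of these, 59 are listed as protein coding, and the others are a pair of pseudogenes and a second entry named Hist2h2bb that is listed as a lincRNA. Both groups were C57BL/6 mice with Senp1flox/flox alleles, aged 6 to 8 weeks, given 100 µg of NP-CGG, a hapten on a carrier protein, into the abdominal cavity. Spleen cells sorted as B220+ CD38- FAS+ were collected on day 14. The cKO mice also carried Cγ1-Cre, a Cre recombinase switched on in B cells that respond to antigen, and the WT mice did not, so the comparison asks which transcripts differ when the SUMO protease gene Senp1 is deleted in such cells. The labels call the mice paired without tying replicate numbers to pairs or libraries to single animals, so the p-values cover library-to-library spread, which may be technical.

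Histone proteins package DNA, with H2A, H2B, H3 and H4 forming the core of the nucleosome and H1 binding the linker between nucleosomes. The replication-dependent genes lie in clusters and are transcribed mainly in S phase, when copied DNA needs new nucleosomes. Their mRNAs usually have no introns and end in a conserved stem-loop in place of a poly(A) tail. The stem-loop is bound by the protein made from Slbp, and a small nuclear ribonucleoprotein that contains Lsm10 and Lsm11 directs the cut that forms the 3′ end. Germinal center B cells divide fast, so histone supply is a large task in them.

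The stem-loop was found by sequence in most of the genes, and it is shown because it sets this family apart from nearly all other coding mRNAs. The search, on the transcript's own strand, was for 16 bases that start with GG and end with CC, with the first 6 complementary to the last 6 and a loop of 4 bases rich in T. Of the 60 histone genes found in GENCODE M21 (GRCm38), 40 had a match in an annotated coding transcript, in every case starting 21 to 58 bases after the stop codon. Among 58725 coding transcripts of other genes 0.0715% had a match, and among the 41750 of at most 3000 bases, a length nearer to that of histone mRNAs, 0.0359% did. Of the 20 histone genes without a match, 10 are annotated with no base after the stop codon. In these the annotation ends before the place where the stem-loop would lie. Of the others, 3 have 1 to 50 bases after the stop codon and 3 have no annotated stop codon. The other 4 have over 50 bases and still no match, among them Hist2h2be with 2192 and Hist1h2bc with 742. In the sequences below the stem-loop is in capitals, with up to 5 flanking bases on each side.
Hist1h1c, chr13:23739507-23739532, plus strand: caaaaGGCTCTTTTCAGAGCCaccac
Hist1h2bj, chr13:22043633-22043658, plus strand: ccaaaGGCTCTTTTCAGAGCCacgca
Hist1h2bb, chr13:23747198-23747223, plus strand: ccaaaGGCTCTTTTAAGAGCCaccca
Hist1h3a, chr13:23761885-23761910, minus strand: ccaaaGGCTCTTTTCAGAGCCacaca
Hist1h3e, chr13:23561898-23561923, minus strand: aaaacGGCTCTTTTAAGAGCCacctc
Hist1h4i, chr13:22040961-22040986, minus strand: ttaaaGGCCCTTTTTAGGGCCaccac
Hist1h4c, chr13:23698084-23698109, minus strand: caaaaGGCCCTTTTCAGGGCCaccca
Hist4h4, chr6:136803993-136804018, minus strand: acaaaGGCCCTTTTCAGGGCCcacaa
There were 8 forms of the 16 bases. The form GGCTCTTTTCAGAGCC was in 21 genes of types H1, H2A, H2B and H3, and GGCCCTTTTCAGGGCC was in 7 genes, all H4. The form with an A in the loop, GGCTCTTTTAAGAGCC, was in 5 H2B and H3 genes.

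The libraries differed in depth and in other ways that touch these genes. The table held 3019152 to 9657005 reads per library in cKO and 5160902 to 10339054 in WT, and a single read was worth 0.542 to 2.04 normalized counts in cKO and 0.506 to 1.06 in WT. A normalized count is the read count divided by a size factor per library, as deposited. Replicate 1 of both groups stood apart on the first principal component, at -38.3 in cKO and -43.9 in WT, while the other libraries lay between -0.715 and 34.1. Senp1 measured 373, 425 and 398 normalized counts in cKO replicates 1 to 3, against 915, 868 and 891 in WT replicates 1 to 3, lower in every cKO library. All 13 germinal center B cell markers of the list were in the table, and they summed to 46105 to 50924 normalized counts in cKO and 52148 to 53300 in WT, without overlap.

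Histone genes were weakly represented in all libraries. Together the 62 genes had 464, 210 and 251 reads in cKO replicates 1 to 3, against 494, 209 and 296 in WT replicates 1 to 3. In CPM, reads scaled to a common library total, this was 48.0, 69.6 and 81.4 in cKO (95% Poisson intervals 43.8 to 52.6, 60.5 to 79.6 and 71.7 to 92.1) and 47.8, 40.5 and 45.3 in WT (43.7 to 52.2, 35.2 to 46.4 and 40.3 to 50.8). These intervals cover counting error only. The labels name neither poly(A) selection nor rRNA removal. Per kilobase of annotated exon, the mean over the 6 libraries had a median of 1.998 normalized counts over the 60 genes with a position, and 9 genes were above 10. The highest were Hist1h4i at 47.6 and Hist1h1c at 41.7 normalized counts per kilobase. On the same scale the replication-independent variants, most of whose mRNAs carry poly(A) tails, had a median of 196 over 11 genes, with H3f3a at 1216, H3f3b at 1210 and H2afz at 976.

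The summed histone level was higher in cKO replicates 2 and 3 than in the other 4 libraries. The 62 genes summed to 252, 399 and 513 normalized counts in cKO replicates 1 to 3, against 249.7, 223 and 253 in WT replicates 1 to 3. The mean was 388 ± 131 in cKO and 242 ± 16.7 in WT (SD, n = 3 libraries each), a ratio of 1.604. The groups overlapped, because cKO replicate 1 lay within the WT range. Within replicate 1 the ratio was 1.01, and within replicates 2 and 3 it was 1.92. Without cKO replicate 3 the ratio was 1.35, without cKO replicate 1 it was 1.89, and without Hist1h1c, the gene with the highest mean, it was 1.80. In bulk libraries such as these, fewer cells of a kind and less RNA per cell cannot be told apart.

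**Figure D1:**
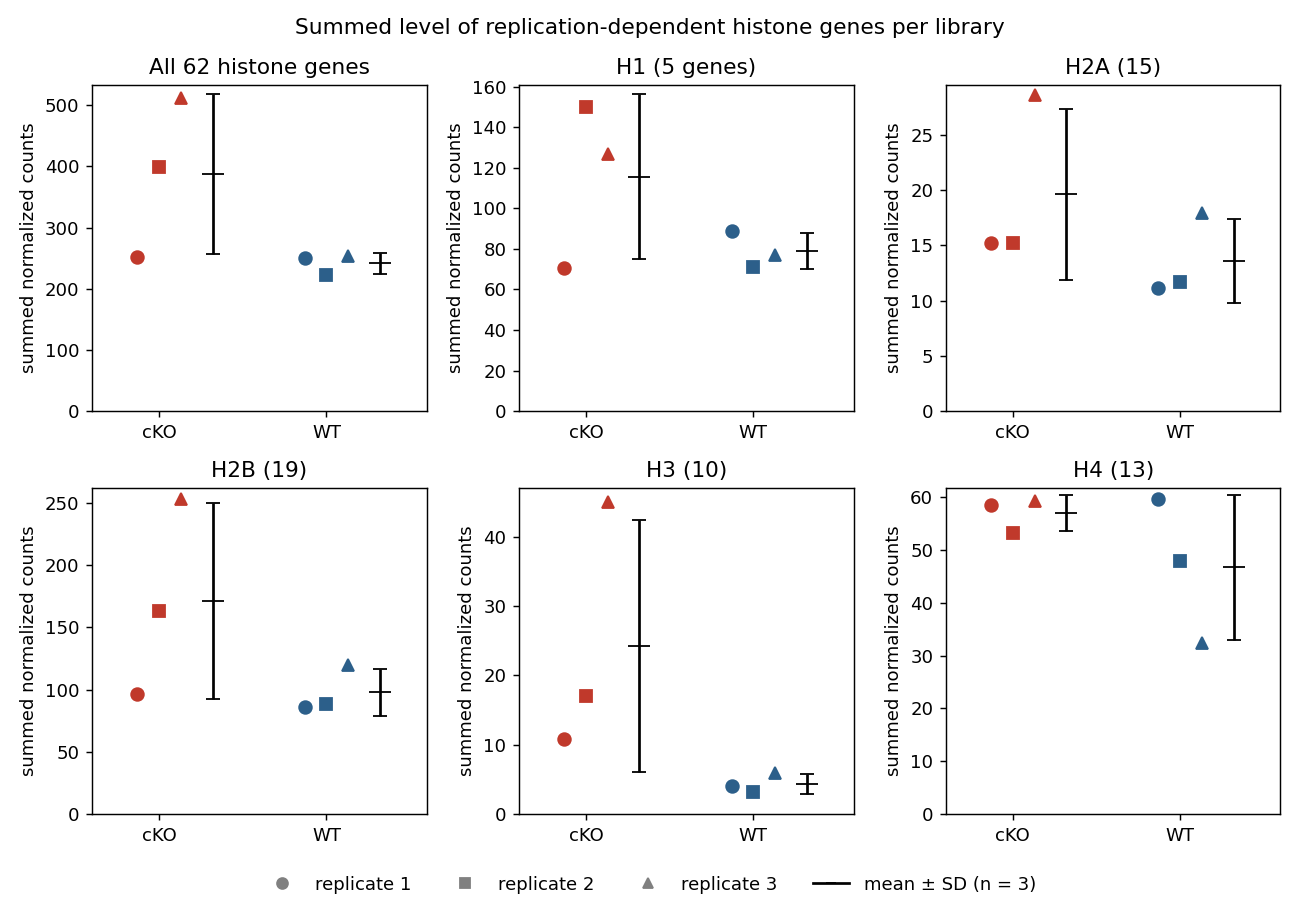
Summed normalized counts of all 62 histone genes and of each type per library (y axis, linear from 0), with cKO left of WT, 1 symbol per replicate number and black bars for mean ± SD (n = 3). For all genes, cKO replicates 2 and 3 lie at 399 and 513, above the WT libraries at 223 to 253, and cKO replicate 1 lies at 252.

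By type, the ratio of cKO to WT means was 1.46 for H1, 1.45 for H2A, 1.75 for H2B, 5.51 for H3 and 1.22 for H4. H3 was the only type whose groups did not overlap. Its 10 genes summed to 10.8, 17.1 and 44.9 normalized counts in cKO replicates 1 to 3, against 4.04, 3.19 and 5.98 in WT replicates 1 to 3. These sums rest on 20, 9 and 22 reads in cKO and 8, 3 and 7 reads in WT. The H3 ratio was 2.68 within replicate 1, and 3.17 without cKO replicate 3, a setting chosen after seeing the data. H4 differed least: its 13 genes summed to 58.6, 53.1 and 59.2 in cKO and 59.7, 47.9 and 32.5 in WT. Single genes with like means in both groups weighed on the H1 and H4 ratios. Hist1h4i had means of 33.8 in cKO and 35.4 in WT, within mean H4 sums of 57.0 and 46.7. Hist1h1c had means of 66.6 in cKO and 63.6 in WT, within mean H1 sums of 116 and 79.1. The H1 and H4 ratios therefore do not describe the other genes of these types. By cluster, Hist1 had a ratio of 1.77 (335 ± 124 in cKO and 189 ± 10.03 in WT), and Hist2 a ratio of 0.828 (28.97 ± 4.57 in cKO and 34.98 ± 1.84 in WT, SD, n = 3 each). The highest cKO sum of Hist2 (32.7) and its lowest WT sum (32.9) differed by less than 1 read. Hist2h2be decided the Hist2 ratio: the other 8 genes summed to a mean of 8.69 in cKO and 4.75 in WT, a ratio of 1.83. The Hist3 ratio was 1.12, and that of Hist4h4, the single Hist4 gene, was 5.83 on 12 reads in cKO and 3 in WT. Of the 49 Hist1 genes, 47 could be placed, in 2 blocks of chromosome 13: 21 genes over 328 kb (21715763 to 22043676) and 26 genes over 233 kb (23531050 to 23764406). The ratio was 1.83 in the first block and 1.71 in the second.

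No histone gene passed the test of cKO against WT. The test was limma with a mean-variance trend on log2(normalized count + 1), with Benjamini-Hochberg adjustment over the 14678 genes whose mean reached 1. It called 0 of the 36 histone genes that entered it (adjusted p of 0.915 to 0.998), where it called 0% of all genes in either direction. Senp1, the deleted gene, was not called either, with a log2 fold change of -1.16 ± 0.12 (SE) and an adjusted p of 0.111 by limma. The lack of a call therefore does not show that levels were equal. At an unadjusted p under 0.05, 7 of the 36 were higher (2.98% of all genes tested, and 2.89% of the 6681 that are at or below the mean of the highest histone gene) and 0 lower (2.17%). On recovered reads edgeR's quasi-likelihood test called 0 of the 9 histone genes it kept (0% of all genes it tested), with 1 of 9 at an unadjusted p under 0.05 (5.66%). DESeq2 called 0 of the 14 histone genes for which it gave an adjusted p (0.197% of all genes with one, 23 genes), with 4 of 62 at an unadjusted p under 0.05 (2.84%). The authors' deposited table gives an adjusted p for 14 histone genes, 0 of them below 0.05 (0.197% of all genes with one, 23 genes), and the smallest is 0.520 for Hist1h2bj.

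The filter on low values kept more genes through their cKO level than through their WT level. Of the 36 genes that entered the test, 13 had a WT mean under 1 and a cKO mean of at least 1, and 0 the reverse, so counts over these 36 are a description. The other 26 genes had 80 reads in all, with means of at most 0.977. Over all 62 genes with no filter, the fitted log2 fold change was above 0 for 50, or 80.6%, where 48.5% of the 19680 genes were above 0. The groups did not overlap for 8 genes with cKO higher (4.74% of all genes with no filter) and for 1 with cKO lower (4.37%). All 9 were among the 36 tested, where the shares over all genes tested were 6.28% and 5.28%, and 6.65% and 3.92% among the 6681 of like or lower mean. A log2 fold change above 0 was found for 32 of the 36, for 49.8% of all genes tested and for 55.7% of the 6681. cKO replicate 3 held the highest value for 32 of the 62 genes and cKO replicate 2 for 14. In these libraries a single read is also worth most. Among the 36 tested genes the median log2 fold change was 0.73, beside -0.0019 over all genes tested and 0.085 over the same 6681 genes. The median difference was 0.12 within replicate 1 and 1.01 within replicates 2 and 3.

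**Figure D2:**
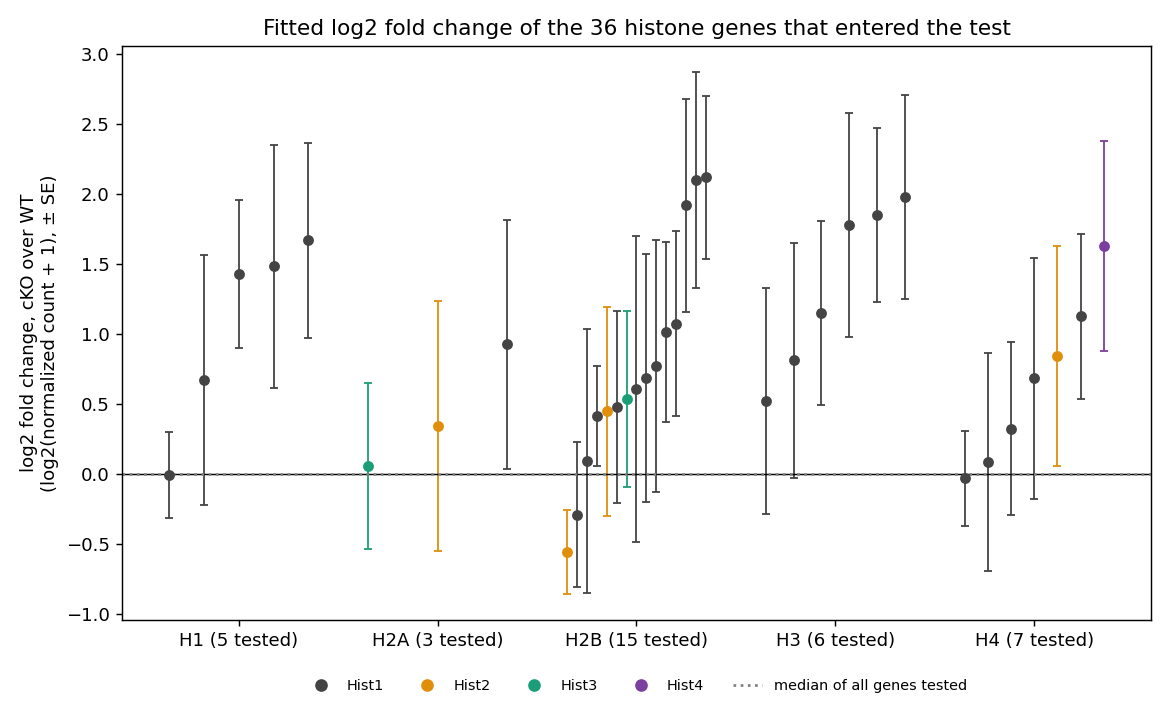
Fitted log2 fold change, cKO over WT, on the log2(normalized count + 1) scale (y axis) of the 36 histone genes that entered the test, by type (x axis) and coloured by cluster; bars are ± SE. The points run from -0.55 for Hist2h2be to 2.12 for Hist1h2bj, and the dotted line marks the median of all genes tested at -0.0019.

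Among the 5 linker histone H1 genes, Hist1h1c carried most reads and did not differ beyond its spread. Hist1h1c (ENSMUSG00000036181) measured 46.1, 98.7 and 55.1 normalized counts in cKO replicates 1 to 3, against 68.2, 57.5 and 64.9 in WT replicates 1 to 3. The highest and both lowest of these values were cKO libraries, and the log2 fold change was -0.0062 ± 0.31 (SE). Hist1h1b measured 7.05, 13.3 and 14.3 in cKO and 5.56, 2.13 and 3.42 in WT. Every cKO value of Hist1h1b was above every WT value, with a log2 fold change of 1.43 ± 0.53 and an adjusted p of 0.915 by limma. Hist1h1a measured 9.22, 1.90 and 42.9 in cKO and 6.07, 4.26 and 7.69 in WT, so that 1 cKO library was the highest and another the lowest of the 6. Hist1h1e measured 3.80, 17.1 and 6.13 in cKO and 4.04, 1.06 and 0.854 in WT, with overlap between cKO replicate 1 and WT replicate 1. Its annotated span overlaps that of Hist1h2be on the same strand, and the sources used here do not say how reads in the overlap were assigned.

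H2A genes had few reads, and 3 of 15 entered the test. Hist3h2a, on chromosome 11 (58954685 to 58956830), measured 10.8, 3.80 and 6.13 in cKO replicates 1 to 3, against 6.07, 3.19 and 11.1 in WT replicates 1 to 3. Its span overlaps Trim17 on the same strand. Hist2h2aa2 measured 0.542, 1.90 and 4.09 in cKO and 0.506, 6.39 and 0 in WT. Hist1h2ac measured 0, 3.80 and 4.09 in cKO and 0, 0 and 2.56 in WT. The groups overlapped for all 3, with log2 fold changes of 0.058, 0.34 and 0.93 and SE of 0.59, 0.89 and 0.89. H2A genes also share much sequence with other annotated genes. A median of 67.1% of the 50-base stretches of their longest transcripts occur in another gene, on either strand. The median was 2.25% for H1 genes, 49.7% for H2B, 57.2% for H3 and 39.5% for H4. A gene annotated over the same place counts as another gene here. Every H2A gene had such a gene on the other strand, which was rare in the other types. The shares therefore do not measure likeness among histone genes alone, and the types cannot be ranked by them. Reads that match several genes may have been dropped or assigned to a copy, so levels of single H2A, H2B, H3 and H4 genes are uncertain. Among H2B genes this share was 59.4% for Hist1h2bj and 40.1% for Hist1h2bb.

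H2B genes held the largest share of the histone signal, 44.1% in cKO and 40.5% in WT, and included the 2 genes that contributed most to the difference between the group means, Hist1h2bb and Hist1h2bj. Hist1h2bb measured 10.8, 32.3 and 47.0 normalized counts in cKO replicates 1 to 3, against 1.52, 8.52 and 13.7 in WT replicates 1 to 3. In both groups replicate 1 was the lowest, and cKO replicate 1 lay below WT replicate 3, so the groups overlapped. The log2 fold change of Hist1h2bb was 1.92 ± 0.76 (SE), with 2.23 within replicate 1 and 1.76 within replicates 2 and 3. Hist1h2bj measured 9.76, 22.8 and 26.6 in cKO and 2.53, 2.13 and 6.83 in WT, from 18, 12 and 13 reads in cKO and 5, 2 and 8 in WT. All cKO values of Hist1h2bj were above all WT values, also within replicate 1. Its log2 fold change was 2.12 ± 0.58, the highest of the 36 tested genes, with an unadjusted limma p of 0.0057 and an adjusted p of 0.915. Hist1h2bb made up 15.2% of the net difference of 146 normalized counts between the group means, and Hist1h2bj 10.9%.

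The other H2B genes went different ways. Hist2h2be (ENSMUSG00000068854), on chromosome 3 at 96221119 to 96223738, measured 19.5, 20.9 and 20.4 in cKO replicates 1 to 3, against 30.3, 28.7 and 31.6 in WT replicates 1 to 3. It was the only histone gene with every cKO value below every WT value. These values rest on 36, 11 and 10 reads in cKO and 60, 27 and 37 in WT. The SD of Hist2h2be was 0.690 in cKO and 1.44 in WT. In cKO replicates 2 and 3 a single read was worth 1.90 and 2.04 normalized counts, more than this cKO SD. The small SD therefore does not show a precise level. The log2 fold change of Hist2h2be was -0.55 ± 0.30, with an adjusted p of 0.915 by limma. The lower level of Hist2h2be held within replicate 1 (-0.61) and within replicates 2 and 3 (-0.52). Hist1h2bc measured 18.98, 20.9 and 30.6 in cKO and 14.7, 17.03 and 19.6 in WT, where cKO replicate 1 lay below WT replicate 3. Hist1h2bm measured 1.63, 9.49 and 12.3 in cKO and 1.52, 0 and 0.854 in WT, resting on 14 reads in cKO and 4 in WT. Its groups did not overlap, but cKO replicate 1 and WT replicate 1 had 3 reads each. Hist3h2ba measured 11.4, 5.69 and 16.3 in cKO and 15.2, 3.19 and 5.98 in WT, and Hist2h2bb 0, 3.80 and 2.04 in cKO and 0.506, 1.06 and 0.854 in WT, both with overlap.

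The H3 genes had few reads each. All 6 that entered the test had a WT mean under 1 and a cKO mean of at least 1, so they passed the filter through their cKO level and their shared direction is not a result, and of the 4 that did not enter, 2 had a lower mean in cKO. Hist1h3a measured 1.63, 7.59 and 10.2 in cKO replicates 1 to 3, against 1.01, 1.06 and 0 in WT replicates 1 to 3. Hist1h3i measured 2.71, 1.90 and 14.3 in cKO and 0.506, 0 and 1.71 in WT. In both genes the groups did not overlap, with log2 fold changes of 1.98 ± 0.73 and 1.78 ± 0.80 (SE). Hist1h3i rested on 5, 1 and 7 reads in cKO and 1, 0 and 2 in WT. Its cKO replicate 2 lay above WT replicate 3 with fewer reads, because a read was worth more there. Hist1h3e had 4, 1 and 2 reads in the cKO libraries and 0 reads in all WT libraries. Hist1h3g measured 0, 1.90 and 6.13 in cKO and 0, 1.06 and 0.854 in WT, with overlap.

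Among the 13 H4 genes, Hist1h4i had the highest level and did not differ beyond its spread. Hist1h4i (ENSMUSG00000060639), on chromosome 13 at 22040636 to 22041362, measured 40.1, 28.5 and 32.7 in cKO replicates 1 to 3, against 48.5, 33.0 and 24.8 in WT replicates 1 to 3. Replicate 1 was the highest in each group, and the log2 fold change was -0.030 ± 0.34 (SE). Hist1h4d measured 5.97, 9.49 and 2.04 in cKO and 4.04, 5.32 and 2.56 in WT. Hist1h4c measured 2.71, 3.80 and 4.09 in cKO and 0.506, 2.13 and 0.854 in WT, without overlap, on 9 reads in cKO and 4 in WT. Hist4h4, the single Hist4 gene, measured 3.25, 1.90 and 10.2 in cKO and 0.506, 2.13 and 0 in WT, and Hist2h4 2.17, 0 and 4.09 in cKO and 0.506, 0 and 0.854 in WT. The groups overlapped for Hist1h4d, Hist4h4 and Hist2h4.

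**Figure D3:**
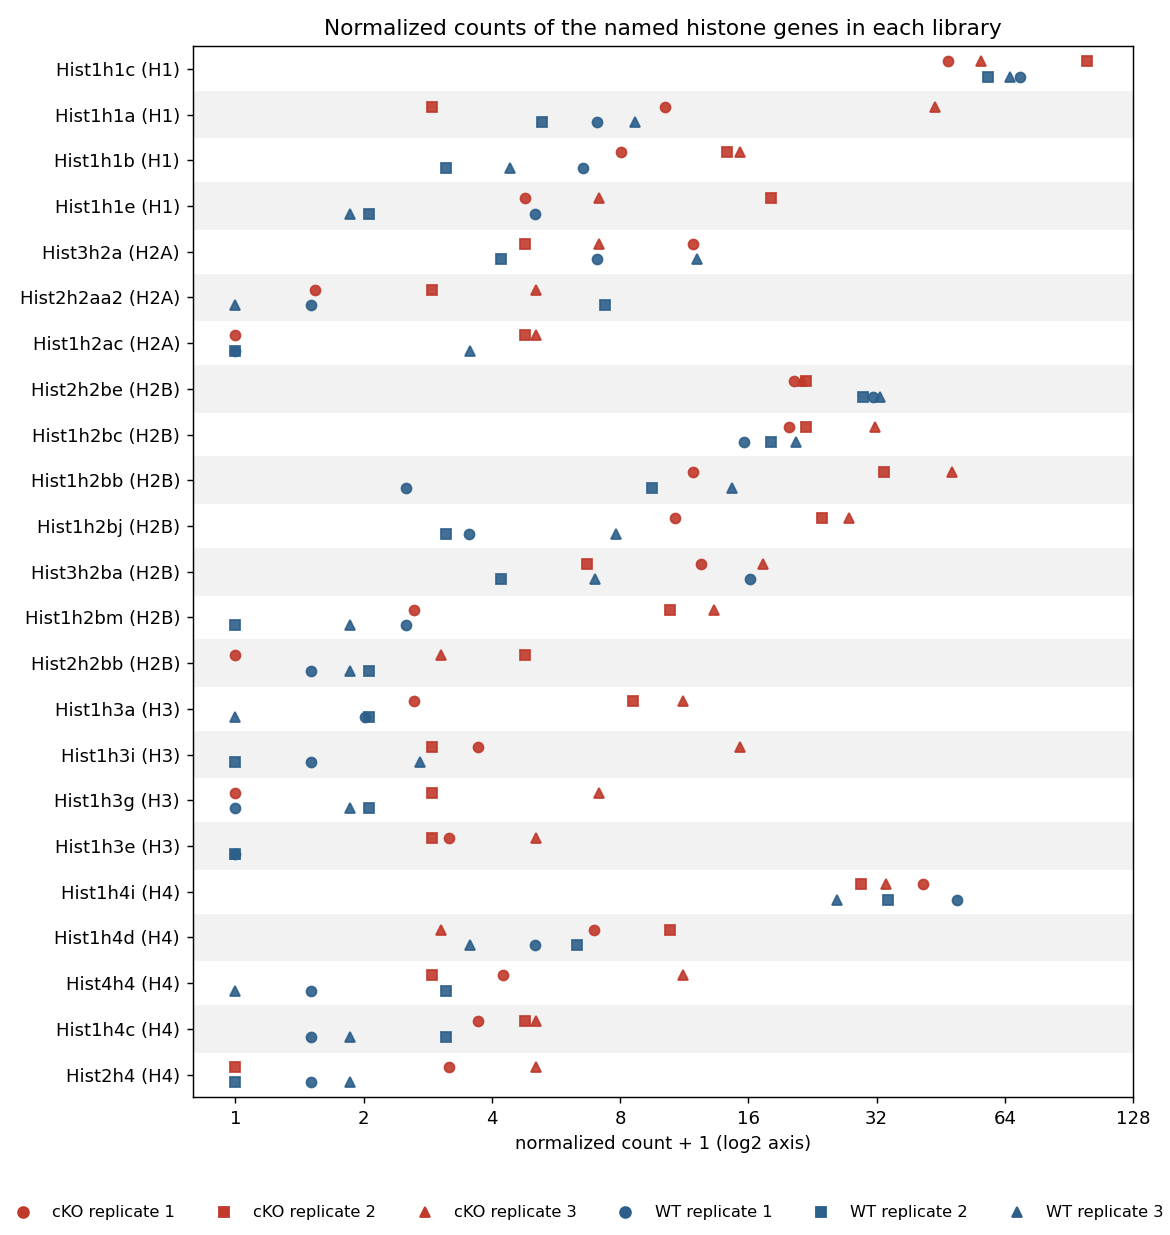
Normalized count + 1 on a log2 axis for the 23 histone genes described singly by the rule for named genes, grouped by type, with cKO points above WT points in each row and 1 symbol per replicate number. Hist2h2be shows all cKO points left of the WT points (19.5 to 20.9 against 28.7 to 31.6), and Hist1h2bj all cKO points right of them (9.76 to 26.6 against 2.13 to 6.83).

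The annotated 3′ end beyond the stem-loop varied from 3 to 4884 bases, and cKO to WT ratios are given here for genes with short and long ends. A limit of 100 bases was set after the lengths were seen, and whether the ratios differ was not tested. The 20 genes with at most 100 bases after the stem-loop, among them Hist1h2bb, Hist1h2bj and Hist1h3a, summed to 32.5, 91.1 and 131 normalized counts in cKO replicates 1 to 3, against 15.2, 28.7 and 34.2 in WT replicates 1 to 3. That is a ratio of 3.26, with 2.15 within replicate 1 and 3.53 within replicates 2 and 3. The 20 genes with over 100 bases, among them Hist1h1c, Hist1h4i and Hist4h4, summed to 151, 224 and 204 in cKO and 169, 134 and 138 in WT, a ratio of 1.31 (0.893 within replicate 1 and 1.57 within replicates 2 and 3). A few genes carried these ratios: without Hist1h2bb and Hist1h2bj the short ends had 2.45, and without Hist1h1c and Hist1h4i the long ends had 1.92. The 20 genes with no match, among them Hist2h2be and Hist1h2bc, had a ratio of 1.52. Hist1h2bc is annotated with 2 exons, while 54 of the 60 annotated genes have 1. High levels were found in both of these sets: the median was 2.65 normalized counts per kilobase for the short ends and 1.36 for the long ends, with maxima of 37.3 for Hist1h2bb and 47.6 for Hist1h4i.

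**Figure D4:**
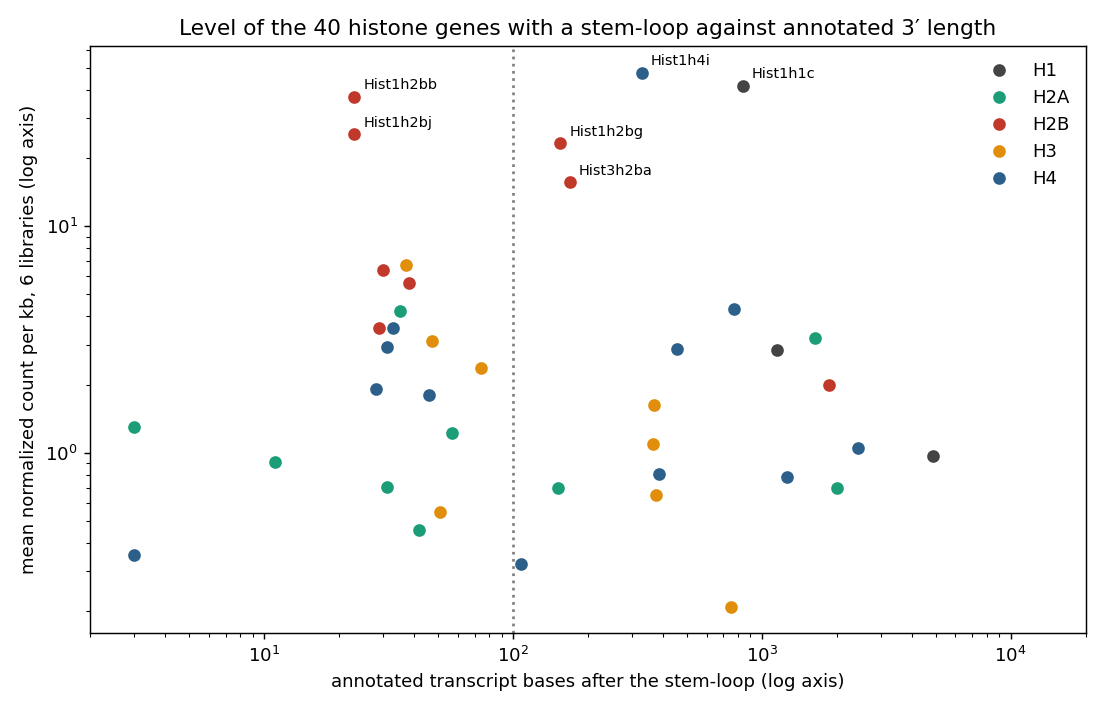
Mean normalized count per kilobase over the 6 libraries (y axis, log) against annotated transcript bases after the stem-loop (x axis, log) for the 40 histone genes with a stem-loop, coloured by type; the dotted line marks 100 bases. Genes with high levels lie on both sides of the line, with Hist1h2bb at 37.3 and Hist1h4i at 47.6.

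Promoters were read from RefSeq (GRCm38.p6), which covered 52 of the 62 genes, with windows from 250 bases before to 50 after the start. The searches covered both strands, and no motif contains another. CCAAT, the core of the box bound by NF-Y, was in 82.7% of the histone promoters and 37.4% of all 32851 promoters of that length. TATAAA was in 59.6% against 13.6%, and the octamer ATTTGCAT, bound by OCT factors in B cells and other cells, was in 21.2% against 1.74%. The octamer was found in 6 of 14 H2A genes and 5 of 13 H2B genes, and in 0 genes of the other types. Some sites were counted for both genes of a pair. The windows of Hist1h2ae and Hist1h2bg overlap on opposite strands and hold the same octamer, as do those of Hist1h2ah and Hist1h2bk. Both pairs also share a TATAAA site, as do Hist1h2ad and Hist1h2bf, Hist1h2ak and Hist1h2bn, and Hist1h2an and Hist1h2bp. CCAAT sites in these overlaps were counted for both genes as well. CCAAT was in 3 of 12 H4 promoters and in all those of the other types. The 150 bases before the start of the H2B genes with the largest difference between group means are shown, with these motifs in capitals.
Hist1h2bb, chr13:23746584-23746733, plus strand: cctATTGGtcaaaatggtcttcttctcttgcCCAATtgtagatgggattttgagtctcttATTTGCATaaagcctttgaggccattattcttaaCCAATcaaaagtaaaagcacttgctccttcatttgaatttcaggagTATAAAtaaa
Hist1h2bj, chr13:22043048-22043197, plus strand: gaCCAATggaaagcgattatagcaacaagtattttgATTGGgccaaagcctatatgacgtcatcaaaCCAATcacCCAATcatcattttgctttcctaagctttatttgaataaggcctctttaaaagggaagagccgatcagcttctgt
Both hold several CCAAT boxes, 3 in Hist1h2bb and 4 in Hist1h2bj. Hist1h2bb also holds the octamer and TATAAA within these bases.

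Genes that make and remove histone mRNA did not pass the test either, and their cKO means were lower in most cases. Of the 38 genes of that list limma, edgeR and DESeq2 each called 0, and 26 had a log2 fold change below 0 (median -0.086). Slbp, whose protein binds the stem-loop, measured 1089, 776 and 862 normalized counts in cKO replicates 1 to 3, against 1284, 1274 and 1069.6 in WT replicates 1 to 3. cKO replicate 1 lay above WT replicate 3, and the log2 fold change of Slbp was -0.42 ± 0.16 (SE), with an adjusted p of 0.915 by limma. Eri1, whose nuclease trims histone mRNA ends, measured 625, 501 and 596 in cKO and 681, 797 and 651 in WT, without overlap. Npat, a coactivator of histone gene transcription, measured 307, 363 and 413 in cKO and 355, 411 and 431 in WT. Casp8ap2, which encodes the processing factor FLASH, measured 481, 507 and 507 in cKO and 506, 669 and 639 in WT. The processing genes Lsm10 (77.0, 56.9 and 51.1 in cKO and 80.4, 56.4 and 64.9 in WT), Lsm11 (79.2, 64.5 and 55.1 in cKO and 88.0, 38.3 and 57.2 in WT) and Zfp473 (46.6, 28.5 and 34.7 in cKO and 42.5, 23.4 and 29.0 in WT) overlapped between the groups. Of the 38 genes, 3 had no overlap with cKO lower and 0 with cKO higher, beside 5.28% and 6.28% of all genes tested.

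Chaperones and variants of histones also gave 0 calls by limma, edgeR and DESeq2. Of 27 chaperone genes 21 had a log2 fold change below 0 (median -0.17). Asf1a, which hands H3 and H4 to assembly factors, measured 247, 243 and 235 in cKO replicates 1 to 3, against 296, 332 and 327 in WT replicates 1 to 3. Cabin1, part of the complex that deposits replication-independent H3, measured 1030.3, 1107 and 1097 in cKO and 848, 899.6 and 797 in WT. The groups did not overlap in either gene, and the adjusted p was 0.915 by limma for both. These were the 2 chaperone genes with the smallest limma p. Of the 27 genes, 2 had no overlap with cKO lower and 1 with cKO higher, beside 5.28% and 6.28% of all genes tested. Of 10 tested replication-independent variants 9 had a log2 fold change below 0 (median -0.17), among them H3f3b at 3490.1, 3441 and 3272 in cKO and 3646, 4198 and 3567 in WT, and H2afy at 1306, 1186 and 1273 in cKO and 1415, 1568 and 1263 in WT. H3f3b had no overlap between the groups and H2afy did. Of the 10 variants, 1 had no overlap with cKO lower and 0 with cKO higher.

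The libraries with the highest histone sums also held most Rn7sk and Rpph1. These were the 2 genes with the smallest limma p in a list of other RNAs that lack a poly(A) tail. Rn7sk, the 7SK RNA that holds back transcription elongation, measured 19.5, 252 and 282 normalized counts in cKO replicates 1 to 3, against 7.58, 11.7 and 41.9 in WT replicates 1 to 3. Rpph1, the RNA of ribonuclease P, measured 29.8, 123 and 139 in cKO and 9.61, 17.03 and 23.9 in WT. Both were highest in cKO replicates 2 and 3, as the histone sum was, and the groups overlapped for Rn7sk and not for Rpph1. Of the 84 genes of this list in the table, which are mostly small nucleolar RNAs, 48 were tested by limma, which called 0. Of these 48, 30 had a log2 fold change above 0 (median 0.38). The groups did not overlap for 6 with cKO higher and 0 with cKO lower, beside 6.28% and 5.28% of all genes tested. On recovered reads edgeR called 0 genes of the list, and DESeq2 called 1 of the 12 with an adjusted p, Rpph1 (adjusted p = 0.00973, against 0.915 by limma and 0.85 by edgeR). The list summed to 191, 604 and 743 in cKO and 121, 218 and 299 in WT. RNAs listed by name, among them Rn7sk and Rpph1, gave 55.3, 408 and 466 in cKO and 18.7, 34.1 and 77.7 in WT. They were the larger part of the list sum only in cKO replicates 2 and 3, so that sum does not describe the small nucleolar RNAs. The mitochondrial share of reads was 3.66%, 12.3% and 19.1% in cKO and 2.71%, 7.92% and 9.83% in WT. S phase and replication genes had sums of 52959, 32177 and 39526 in cKO and 57848, 52901 and 40157 in WT, with a log2 fold change below 0 for 36 of 38 (median -0.27, 0 called by limma, edgeR and DESeq2). Pola1, the catalytic subunit of DNA polymerase alpha, measured 843, 528 and 576 in cKO and 983, 980.5 and 716 in WT. Per 1000 normalized counts of the S phase list, histone genes had 4.75, 12.4 and 12.97 in cKO and 4.32, 4.21 and 6.30 in WT. The part of these measures in the histone difference was not tested.

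**Figure D5:**
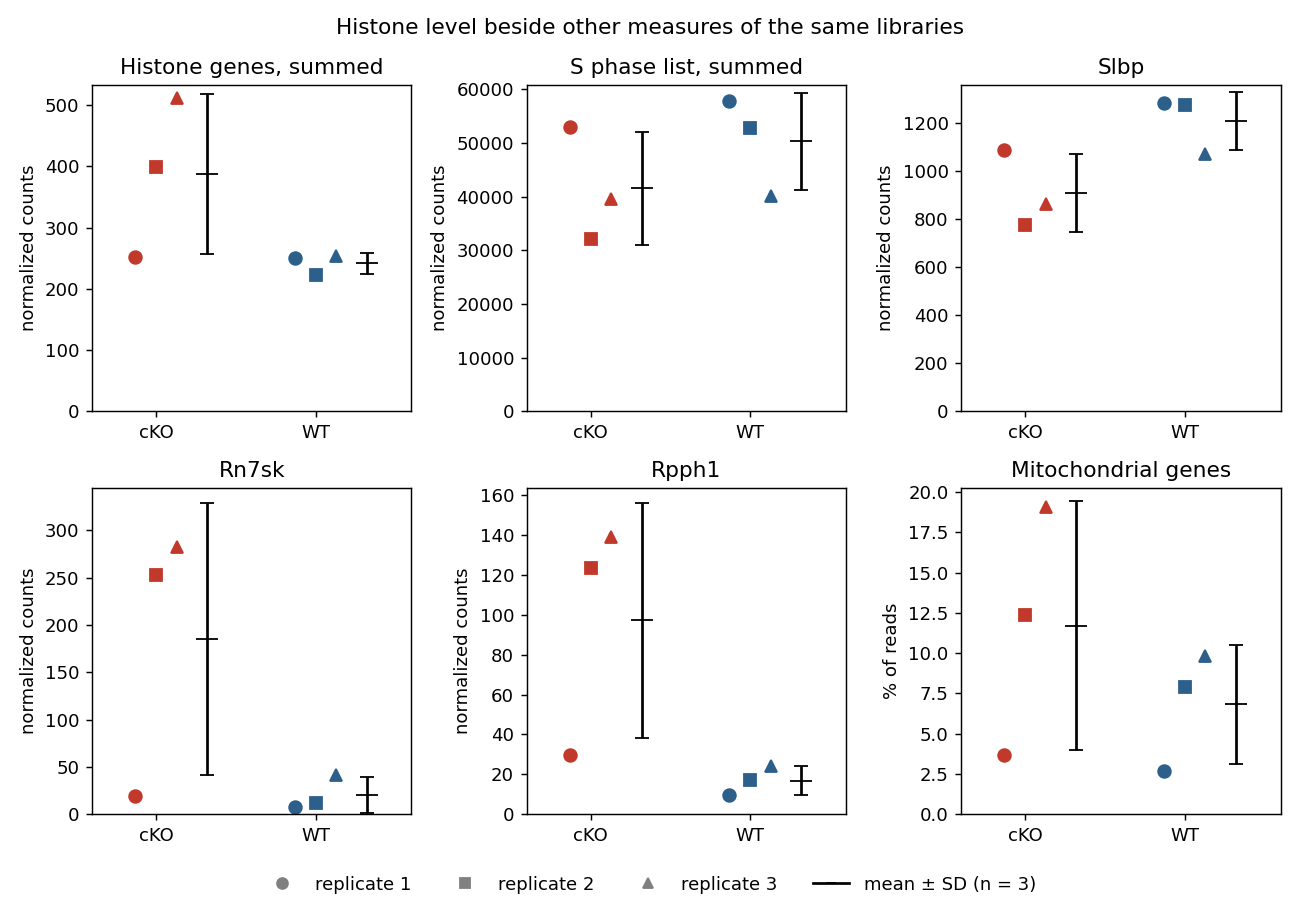
Summed histone level, summed S phase list, Slbp, Rn7sk and Rpph1 (normalized counts) and the mitochondrial share of reads (%) in the same libraries, with cKO left of WT, 1 symbol per replicate number and black bars for mean ± SD (n = 3). Rn7sk and Rpph1 are highest in cKO replicates 2 and 3 (252 and 282, 123 and 139), as is the histone sum, while the S phase sum in these libraries is 32177 and 39526.

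Markers of T cells, macrophages, follicular B cells and plasma cells summed highest in cKO replicate 2. The 12 T cell markers summed to 817, 1999 and 525 in cKO replicates 1 to 3, against 754, 769.7 and 679 in WT replicates 1 to 3. Lck, 1 of the 12, made up most of these sums outside cKO replicate 2. The other 11 T cell markers summed to 253, 1308 and 55.1 in cKO and 269.95, 196 and 181 in WT, and Cd3d, Cd3g and Cd8a had 0 reads in cKO replicate 3 and Cd8b1 in WT replicate 3. The 11 macrophage and monocyte markers summed to 345 to 615 in cKO and 158 to 374 in WT, with 10 of 11 log2 fold changes above 0. The 7 erythroid markers summed to 32.5, 36.1 and 135 in cKO and 39.4, 43.6 and 56.4 in WT. The 7 follicular naive B markers summed to 4009 to 9238 in cKO and 2363 to 5081 in WT, all with a log2 fold change above 0. Plasma cell markers summed to 8230 to 16983 in cKO and 9156 to 13812 in WT, and dendritic cell markers to 188 to 321 in cKO and 321 to 397 in WT. Neutrophil markers summed to 14.3 to 114 in cKO and 10.3 to 105 in WT, and NK cell markers to 36.8 to 104 in cKO and 15.4 to 101 in WT. No marker of these lists was called by limma, edgeR or DESeq2, and their part in the histone values was not tested.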

How the data were processed

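The authors deposited 1 table of 19680 genes with a normalized signal (read counts divided by a size factor) for each of 6 libraries and their own log2 fold change, test score, p-value and adjusted p-value, per the file headers. Tools named in the submitters' processing notes are DESeq2, HTSeq, SAMtools, HISAT, HISAT2 and TopHat2, with the build mm10 and without versions or order. Not given in the sources used here: annotation release, strand setting and treatment of reads that match several genes. All values (100%) were whole multiples of each column's smallest value within 0.01 read, so read counts were recovered. The main test was limma 3.58.1 (R 4.3.3) with its trend option, applied to log2(value + 1) for genes with a mean of at least 1 and genotype as the only term, with edgeR 4.0.16 and DESeq2 1.42.0 on recovered reads as alternatives. For genes with low values the added 1 shrinks the fold change. The limma step was tested on simulated data. Its power for genes with as few reads as the histone genes was not tested. Histone genes are rows named Hist1 to Hist4. Named genes were, per type, the 3 highest and the 2 with the smallest p, all tested members of Hist2 to Hist4, and of the other lists fixed genes plus the 2 with the smallest p. The members and lists were chosen with earlier results of these data known. Positions and transcripts come from GENCODE M21 (GRCm38), which held 60 of the 62 identifiers.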

Additional observations from a re-analysis of the deposited data

How the results depend on the processing

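Direction and calls were compared over 18 alternatives. The count of histone genes called was 0 in each. Over the whole table limma called 0 genes, against 1 with the replicate block, 3 with a term for replicate 1 and 23 by DESeq2 on recovered reads. The replicate block called 0 histone genes (smallest adjusted p = 0.284). The numbers were not taken as pairs, since same-numbered libraries deviated together with r = 0.69, 0.054 and 0.31 for replicates 1 to 3, and cKO replicate 2 correlated best with WT replicate 3 (0.36). The median log2 fold change of the tested histone genes, 0.73, stayed above 0 in all alternatives. The genes behind it changed with the setting. It was 1.40 by DESeq2 over all 62 genes and 0.37 by edgeR over the 9 genes it kept. With a pseudocount of 5 it was 0.38 over the same 36 genes. With single libraries left out it was 0.50 to 1.26, lowest without cKO replicate 3 (33 genes) and highest without cKO replicate 1 (37 genes). The ratio of summed levels was 1.47 after quantile normalization, 1.49 with library totals, 1.58 with TMM factors and 1.35 to 1.89 with single libraries left out. Signs turned for 8 named genes. Hist3h2a was at -0.045 after quantile normalization, -0.0064 with library totals, -0.29 in replicates 2 and 3 alone and -0.32 to 0.44 with single libraries left out. Hist1h1c was at 0.27 in replicates 2 and 3 alone, 0.052 by edgeR, 0.035 by DESeq2 and -0.32 to 0.22 with single libraries left out. Hist1h4i was at 0.090 in replicates 2 and 3 alone and -0.25 to 0.22 with single libraries left out, and Hist2h2aa2 at -0.13 by DESeq2 and -0.24 to 1.21. With single libraries left out, Hist1h1a ranged from -0.33 to 1.63, Hist1h4d from -0.073 to 0.82, Lsm10 from -0.30 to 0.0049 and Lsm11 from -0.11 to 0.48. The cause was not tested. Few reads per gene limit all single histone genes. Sums without Hist2h2be, without the 2 highest genes of each set of 3′ ends and by type without single libraries were chosen after seeing the data.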
